A study of Rattus norvegicus with 23 samples.

Results

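The 3 d comparison set small RNA libraries of rat PC12 cells that stably expressed α1ACT against libraries of PC12 cells that carried the empty vector, both taken 3 d after the cells had been split. It used 6 of the 23 libraries of the series, 3 of each line, chosen by cell line and time from the sample titles. PC12 is a pheochromocytoma line of the adrenal medulla, used as a stand-in for chromaffin cells and young neurons. α1ACT is the transcription factor made from the carboxyl end of the calcium channel gene CACNA1A. The construct encoded it with 11 glutamine repeats and a carboxyl-terminal 3xFlag tag in pcDNA3, and the control line held pcDNA3 without an insert. Both lines had been selected with G418. The same 2 lines were also sampled at 6 h, 24 h and 10 d (2 vector libraries at 6 h, 3 libraries in each other group). The question of the study was which miRNAs α1ACT regulates.

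Stable clones were obtained from each transfection, but the labels do not give how many clones stand behind a line, so a difference between the lines and a difference between clones cannot be told apart. Nothing in the labels ties the replicates to separate cultures, and the p-values then rest on a spread between libraries that may be technical. In the count table the columns are named control and WT. Taking them as the vector and the α1ACT line assumes that WT names the construct with its glutamine tract of normal length. The level of α1ACT itself cannot be read from small RNA. Fewer cells of a type and less miRNA per cell cannot be told apart in such bulk libraries.

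A miRNA is a short RNA that guides an Argonaute protein to messenger RNAs and lowers their translation and stability. Bases 2 to 8 at its 5′ end, the seed, do most of the pairing, so miRNAs with 1 seed are counted as a family with largely shared targets. A hairpin precursor gives a 5p and a 3p arm, of which often only 1 is abundant. Family members can come from unrelated places in the genome, and neighbouring hairpins can share 1 primary transcript.

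The vector libraries held 448557, 2784837 and 3849102 miRNA counts and the α1ACT libraries 2021036, 2335856 and 2025590. Vector replicate 1 was thus the shallowest of the 23 libraries, where 1 read stands for 2.24 CPM (counts scaled to a common library total), against 0.268 to 0.506 CPM in the other 5. Of 413 entries in all, 269 had enough counts to be tested, and 218 of these averaged at least 10 CPM over the 6 libraries. In vector replicate 1, 29 of the 269 had no read and 95 fewer than 10 reads, against 1 to 6 and 13 to 24 in the others. Its log2 levels correlated at r = 0.980 to 0.983 with the other libraries, which correlated with each other at r = 0.990 to 0.997 (216 abundant entries, a description with no test). The 10 most abundant miRNAs took between 70.4% and 72.4% of each library. Neuroendocrine markers (miR-375, miR-7a, miR-7b, miR-182, miR-183 and miR-96) each had counts in at least 1 of the 6 libraries. Their summed level was 204915 to 221836 CPM in vector and 194581 to 210145 CPM in α1ACT libraries. Most of it was miR-375-3p, at 173098 to 190561 CPM in vector and 157432 to 180265 CPM in α1ACT libraries. miR-7b was at 0 in every α1ACT library and at most 1.34 CPM in vector libraries. miR-7a-5p reached at most 10.2 CPM in vector and 12.9 CPM in α1ACT libraries. Of 7 neuronal markers 6 had counts (2558 to 2734 and 2659 to 2927 CPM in sum), while miR-124, the defining miRNA of mature neurons, was at 0 in all 6 libraries. Of the 6 blood cell markers 3 had counts, in sum at most 3.04 CPM in vector and 4.33 CPM in α1ACT libraries.

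Mature sequences are given 5′ to 3′ as RefSeq lists them for assembly GRCr8, with the seed in capitals. They are those of miRNAs that led the comparison and of members of their seed families. Of the latter, miR-181d-5p and miR-30e-5p did not themselves lead it. The first 4 are the miR-181 family, which shares the seed ACAUUCA and was split at 3 d: miR-181a-5p stood out and miR-181c-5p and miR-181d-5p did not.
miR-181a-5p: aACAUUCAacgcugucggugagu
miR-181b-5p: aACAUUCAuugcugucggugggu
miR-181c-5p: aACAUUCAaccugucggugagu
miR-181d-5p: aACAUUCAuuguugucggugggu
The next 4 had the smallest p among the other abundant miRNAs with a higher level in the α1ACT line and a RefSeq sequence, and no seed is shared among these 4.
miR-9a-5p: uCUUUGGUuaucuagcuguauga
miR-708-3p: cAACUAGAcugugagcuucuag
miR-34c-5p: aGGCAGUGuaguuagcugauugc
miR-322-3p: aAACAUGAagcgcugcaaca
The last 6 had lower mean levels in the α1ACT line. The miR-30 guide arms share the seed GUAAACA, and miR-30c-2-3p is the opposite arm of 1 of the 2 miR-30c hairpins.
miR-143-3p: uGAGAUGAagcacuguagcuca
miR-30a-5p: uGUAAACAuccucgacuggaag
miR-30e-5p: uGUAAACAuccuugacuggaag
miR-30c-5p: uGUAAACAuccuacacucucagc
miR-30c-2-3p: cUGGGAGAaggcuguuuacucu
miR-106b-5p: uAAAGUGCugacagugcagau
Over their shared length miR-181a-5p differs from miR-181b-5p at 3 of 23 bases and from miR-181d-5p at 4 of 23, and miR-30a-5p differs from miR-30e-5p at 1 of 22 and from miR-30c-5p at 5 of 22. None of these differences lies in the seed. Position by position miR-181c-5p differs from miR-181a-5p at 11 of 22 bases. The 2 sequences are the same once 1 g after the seed of miR-181a-5p is left out. Counts of a scarce member beside an abundant one of such a close sequence are uncertain. This holds for miR-181b-5p beside miR-181d-5p and for miR-181a-5p beside miR-181c-5p. Of the 269 tested entries 248 matched 1 mature sequence.

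At 3 d miR-181a-5p was more abundant in the α1ACT than in the vector line, and this was the only miRNA past the threshold in the test across all entries. Its partner miR-181b-5p, the neural miRNA miR-9a-5p and the 3p arm of miR-708 followed with a smaller or less certain excess. On the other side miR-143-3p, a miRNA of smooth muscle and fibroblasts, and several arms of the miR-30 family had lower levels in the α1ACT line without passing that threshold. Of the 269 entries edgeR's quasi-likelihood test called 1 at a Benjamini-Hochberg (BH) adjusted p under 0.05, 1 higher (0.372%) and 0 lower (0%). At an unadjusted p under 0.05 edgeR gave 24 entries (8.92%), 11 higher (4.09%) and 13 lower (4.83%). In 17 entries all 3 α1ACT libraries lay above all 3 vector libraries (6.32%), and in 20 all 3 lay below (7.43%). DESeq2 called 3 higher (miR-181a-5p, miR-708-3p and miR-9a-5p) and 3 lower (miR-143-3p, miR-30a-5p and miR-30c-2-3p), and limma-voom called miR-9a-5p alone. With 1 of the 6 libraries left out edgeR called 0 to 1 higher and 0 to 4 lower, the 4 (miR-143-3p, miR-30a-5p, miR-30c-5p and miR-30c-2-3p) without vector replicate 2. Apart from these few, the lines were close: the 218 abundant entries had a median absolute log2 fold change of 0.123, 106 of them had a positive value, and 4 reached 0.5 upward and 4 downward.

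**Figure D1:**
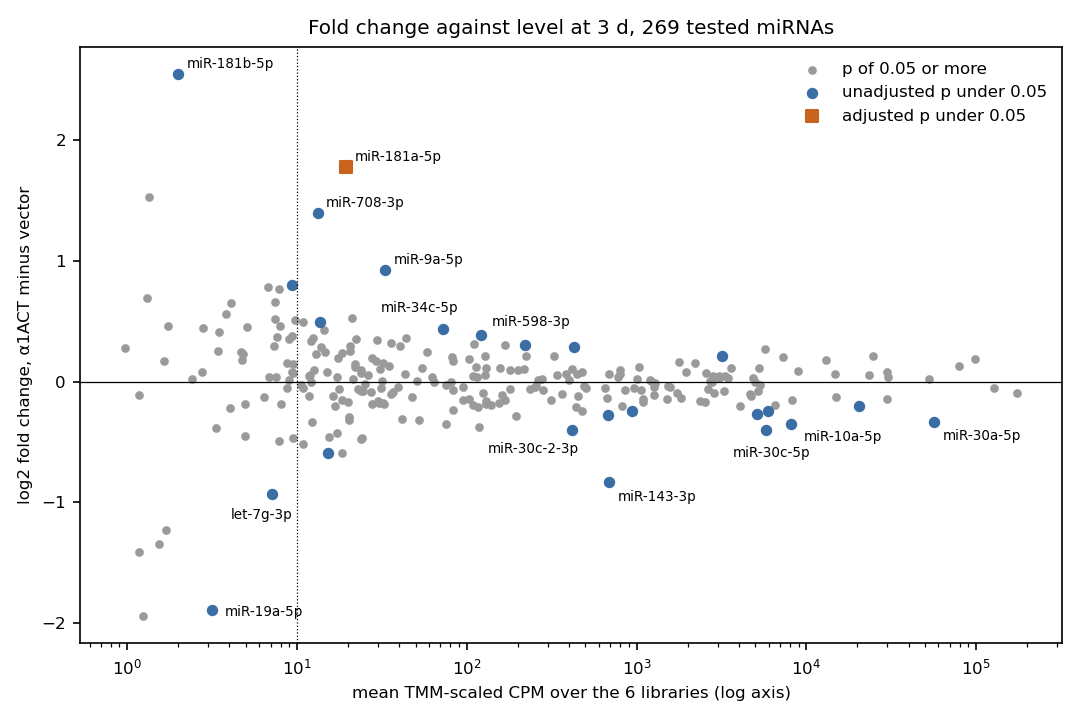
Log2 fold change at 3 d (α1ACT minus vector, vertical axis) against the mean level over the 6 libraries (TMM-scaled CPM, log axis) for the 269 tested entries; the dotted line marks 10 CPM. The square is miR-181a-5p, the 1 entry with an adjusted p under 0.05, blue points are the other 23 with an unadjusted p under 0.05, and the spread widens to the left, where the median standard error was 0.512 under 10 CPM against 0.163 above it.

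The miR-181 family acts in lymphocyte and neural development. In the vector libraries miR-181a-5p stood at 6.73, 8.78 and 9.64 CPM (CPM after scaling by trimmed means of M values, TMM) and in the α1ACT libraries at 38.2, 17.3 and 35.9 CPM. All 3 α1ACT libraries lay above all vector libraries, replicate 2 by the smallest margin. The fitted log2 fold change was 1.78 (SE 0.385, 95% interval 0.98 to 2.57, edgeR quasi-likelihood, BH-adjusted p = 0.0281), on 3, 26 and 36 reads in the vector libraries and 86, 40 and 71 in the α1ACT libraries. The unadjusted p was under 0.05 in all 20 alternative settings and the log2 fold change ran from 1.53 to 2.06, but the call held in 11 of the 20. It was lost without vector replicate 1, the shallow library (edgeR, adjusted p = 0.0934), and without vector replicate 2 or 3 or α1ACT replicate 1 or 3 (edgeR, adjusted p = 0.0713 to 0.237). It was also lost in the other deposited count table (edgeR, adjusted p = 0.143), where the log2 fold change was 1.53.

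The gene table places miR-181a at 2 loci, 1 within the gene Nr6a1 and 1 beside Mir181b1. From miR-181b-5p, the neighbour, 0, 4 and 0 reads were counted in the vector libraries and 10, 5 and 8 in the α1ACT libraries. Every α1ACT library thus had more reads than any vector library, but the levels were at most 4.45 CPM, under the 6.73 CPM that 3 reads stand for in vector replicate 1. The abundant members come from another place, where Mir181c and Mir181d lie side by side. Here miR-181c-5p stood at 6452, 6470 and 7349 CPM in the vector and 8431, 6982 and 7922 CPM in the α1ACT libraries, which overlap (log2 fold change 0.20, SE 0.102). For miR-181d-5p the log2 fold change was 0.07 (2501 ± 179 against 2632 ± 113 CPM, SD, n = 3 each) and for miR-181c-3p 0.06. Summed over the seed, the 4 members stood at 8828, 8908 and 10064 CPM in the vector and 11182, 9505 and 10648 CPM in the α1ACT libraries, and these sums overlap. At 8.38 ± 1.5 and 30.5 ± 11.5 CPM (SD, n = 3), miR-181a-5p was a small part of the seed's reads in both lines. Whether any of its reads came from the abundant miR-181c-5p, of a close sequence, was not tested.

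miR-9a-5p, abundant in neural progenitors and neurons, stood at 33.6, 14.2 and 24.1 CPM in the vector libraries and 48.0, 35.5 and 42.5 CPM in the α1ACT libraries. The groups did not overlap, but vector replicate 1 came close to α1ACT replicate 2. Its log2 fold change was 0.92 (SE 0.252, edgeR quasi-likelihood, BH-adjusted p = 0.0768). It was called without the shallow vector replicate 1 (edgeR, log2 fold change 1.12, adjusted p = 0.0344), where miR-181a-5p was not. Without vector replicate 2, the lowest library, the log2 fold change was 0.62 (edgeR, adjusted p = 0.402). The opposite arm, miR-9a-3p, had at most 0.867 CPM in any of the 6 libraries. The 2 deposited count tables disagree on miR-9a-5p itself, with 421 reads over these libraries here and 1 in the other.

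miR-708 lies within the gene Tenm4 and is known to be induced by stress of the endoplasmic reticulum. miR-708-3p stood at 4.48, 5.06 and 10.7 CPM in the vector libraries and 23.6, 19.1 and 16.7 CPM in the α1ACT libraries. All α1ACT libraries lay above the vector libraries, with replicate 3 of the 2 lines the nearest, but vector replicate 1 held 2 reads of it. With a log2 fold change of 1.39 (SE 0.432, edgeR quasi-likelihood, BH-adjusted p = 0.135) it was not called, and the value ran from 1.11 to 1.99 when 1 library was left out. miR-708-5p, from the same hairpin, stood at 4.48, 3.71 and 8.31 CPM against 14.2, 5.63 and 8.09 CPM. Here the groups overlap, and the log2 fold change of 0.66 (SE 0.496) was 0.20 without α1ACT replicate 1 and 1.26 without vector replicate 3.

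The other miRNAs with an unadjusted p under 0.05 and a positive log2 fold change differed by smaller steps. miR-34c-5p, a target of p53, stood at 71.7, 50.3 and 65.9 CPM in the vector and 86.7, 77.6 and 85.0 CPM in the α1ACT libraries, a log2 fold change of 0.44 (SE 0.172, edgeR quasi-likelihood, BH-adjusted p = 0.354). Its groups did not overlap. miR-192-5p, also linked to p53, was far more abundant, at 3002, 3154 and 2716 CPM against 3229, 3423 and 3598 CPM (log2 fold change 0.21, SE 0.0896). Its groups did not overlap either, and its unadjusted p was under 0.05 in 9 of 20 alternative settings. Log2 fold changes were 0.39 for miR-598-3p (104 ± 21.8 against 140 ± 18.2 CPM), 0.30 for miR-322-3p, the scarcer arm of a hairpin linked to cell cycle arrest (199 ± 31.2 against 240 ± 5.17 CPM), and 0.29 for miR-374-5p (388 ± 74.9 against 466 ± 58.6 CPM). For miR-212-5p, from the CREB-driven miR-212 and miR-132 locus, it was 0.50 (11.0 ± 2.10 against 16.3 ± 2.53 CPM). The edgeR Benjamini-Hochberg adjusted p of these 4 lay between 0.323 and 0.494. Of them only miR-374-5p had overlapping groups. Without vector replicate 2 the log2 fold change shrank to 0.29 for miR-34c-5p, to 0.19 for miR-322-3p and to 0.14 for miR-374-5p.

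**Figure D2:**
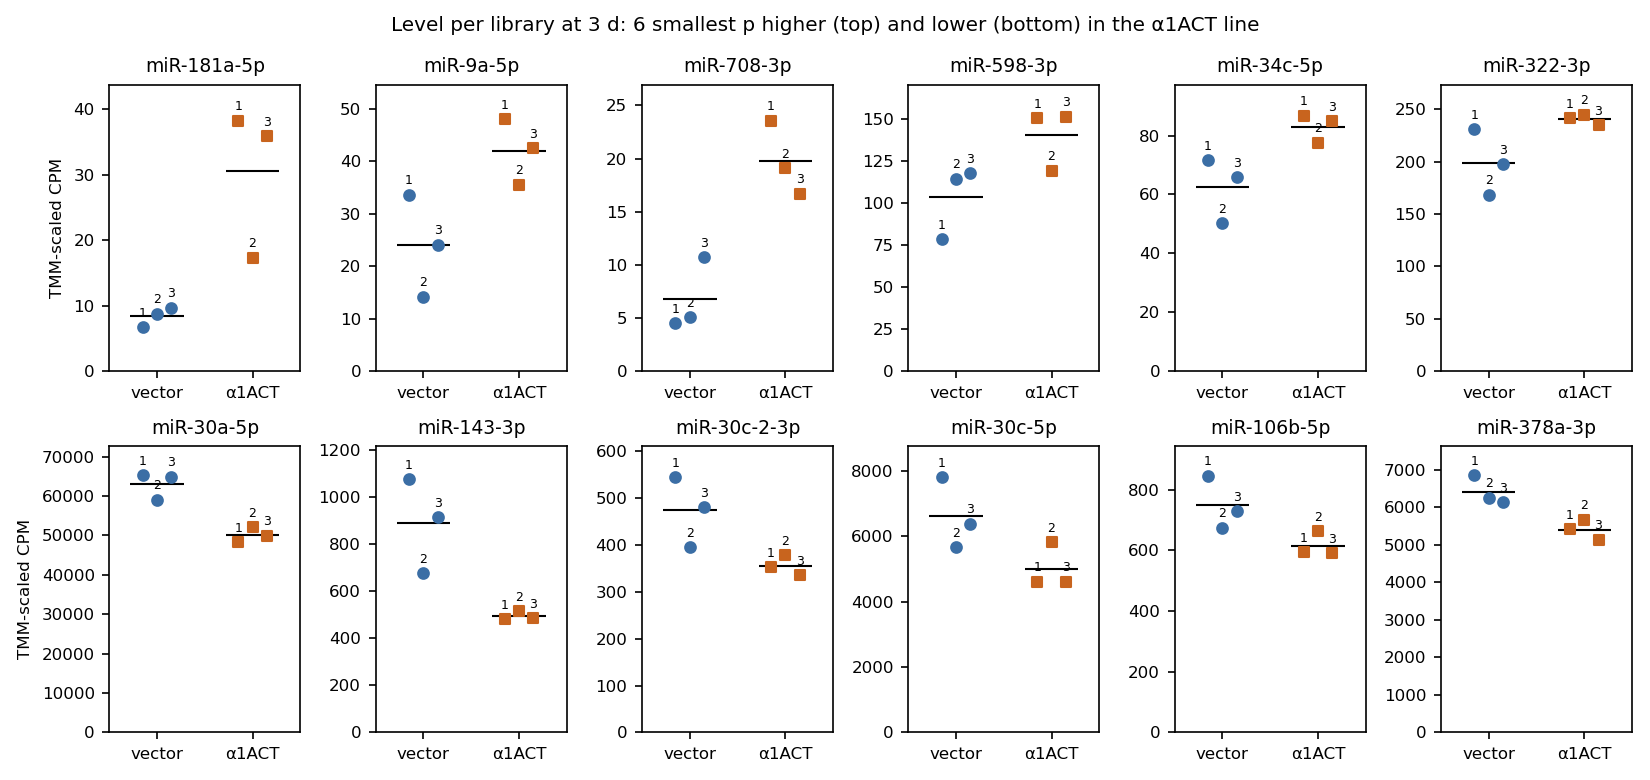
TMM-scaled CPM of each 3 d library (circles: vector, squares: α1ACT, numbered by replicate, bars: group means) for the 6 smallest p with a higher and the 6 smallest p with a lower level in the α1ACT line; each panel has its own linear axis from 0. The 2 groups overlap in miR-30c-5p alone, where α1ACT replicate 2 lies above vector replicate 2, and miR-181a-5p shows the widest relative gap.

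Among lower miRNAs that averaged at least 10 CPM miR-143-3p had the steepest difference. It stood at 1076, 676 and 915 CPM in the vector libraries and at 482, 515 and 485 CPM in the α1ACT libraries. The 3 α1ACT libraries lay close together and below every vector library, while the vector libraries spread over more than the gap between the groups. The log2 fold change was -0.83 (SE 0.221, 95% interval -1.29 to -0.37, edgeR quasi-likelihood, BH-adjusted p = 0.0768), on at least 480 reads per library. It was called by DESeq2, in the 3 d libraries alone and without vector replicate 2, and ran from -1.0 to -0.69 when 1 library was left out. The hairpin lies in the long noncoding RNA gene Carmn beside miR-145, its usual companion in smooth muscle. Here miR-145-5p had no read in any of the 6 libraries and miR-145-3p at most 1.01 CPM. The summed mesenchymal markers (miR-143, miR-145, miR-199a and miR-214, of which miR-214 was at 0) ran from 688 to 1094 CPM in vector and from 490 to 528 CPM in α1ACT libraries, almost all of it miR-143-3p. The endothelial marker miR-126a summed to 94.2 to 142 CPM and 94.5 to 122 CPM. What part other cells had in the level of miR-143-3p was not tested.

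The miR-30 family is broadly expressed and known to repress genes of the epithelial to mesenchymal transition. Of its 9 tested members 8 had a negative log2 fold change, with a median of -0.20 against 0.02 over all 269 entries. At an unadjusted p under 0.05 edgeR gave 5 of the 9 as lower, against 4.83% of all entries, and 0 as higher. None of the 5 was called (edgeR quasi-likelihood, BH-adjusted p = 0.0768 to 0.494). Their unadjusted p was under 0.05 in all 20 alternative settings for miR-30a-5p, miR-30c-5p and miR-30c-2-3p. It was so in 13 for miR-30d-5p and in 9 for miR-30a-3p. In 4 of the 9 all α1ACT libraries lay below all vector libraries, against 7.43% of all entries. The median stayed negative under each of 3 other scalings, at -0.23, -0.12 and -0.18 with RLE factors, upper-quartile factors and library totals. The family was described with its lower level as a mean over the 4 times already known, so its count here is no independent evidence.

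miR-30a-5p carried most of the family. It stood at 65214, 59085 and 64906 CPM in the vector libraries and 48236, 52124 and 49918 CPM in the α1ACT libraries. The gap between the groups was wider than the range within either. The log2 fold change was -0.33 (SE 0.0912, 95% interval -0.52 to -0.15, edgeR quasi-likelihood, BH-adjusted p = 0.0768). miR-30a-3p, from the same hairpin, stood at 998, 978 and 1059 CPM against 921, 814 and 832 CPM, also without overlap (log2 fold change -0.24, SE 0.113). Both arms of this hairpin thus had lower levels in every α1ACT library.

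miR-30c-5p stood at 7806, 5657 and 6389 CPM in the vector libraries and 4605, 5825 and 4608 CPM in the α1ACT libraries. α1ACT replicate 2 lay above vector replicate 2, so these groups overlap. The log2 fold change was -0.40 (SE 0.122, edgeR quasi-likelihood, BH-adjusted p = 0.125) and shrank to -0.26 without vector replicate 1. Its 2 hairpins, Mir30c1 in the gene Nfyc and Mir30c2, give separate 3p arms. miR-30c-2-3p stood at 545, 395 and 480 CPM against 353, 378 and 335 CPM with no overlap (log2 fold change -0.40, SE 0.119), and the scarcer miR-30c-1-3p had a log2 fold change of -0.16 with overlap. miR-30d-5p, at 22736, 20614 and 22590 CPM against 18732, 19807 and 18763 CPM, did not overlap either (log2 fold change -0.20, SE 0.0844). The remaining members, miR-30e-5p (-0.12), miR-30d-3p (-0.16) and miR-30e-3p (0.04), had an unadjusted p above 0.05. Summed over the 9 members the family stood at 98361 ± 5497 CPM in the vector and 80221 ± 3582 CPM in the α1ACT libraries (SD, n = 3), and these sums did not overlap. Among guide arms matched to a RefSeq sequence, miR-30a-5p, miR-30c-5p and miR-30e-5p share the seed GUAAACA. Together they stood at 69713 to 77549 CPM in the vector and 56967 to 62915 CPM in the α1ACT libraries. This sum leaves out miR-30d-5p, which was not matched to a single RefSeq sequence.

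Beyond this family, miR-106b-5p, a repressor of cell cycle inhibitors from an intron of Mcm7, stood at 845, 675 and 729 CPM in the vector and 595, 662 and 590 CPM in the α1ACT libraries (log2 fold change -0.27, SE 0.109). miR-378a-3p, which lies in the metabolic gene Ppargc1b, stood at 6857, 6254 and 6144 CPM against 5416, 5668 and 5136 CPM (log2 fold change -0.25, SE 0.0986). Neither pair of groups overlapped, and both had an edgeR adjusted p of 0.354. For the hypoxia-induced miR-210-3p the levels were 6100, 5776 and 4990 CPM against 4793, 4438 and 4724 CPM, without overlap (log2 fold change -0.27, SE 0.131). Its opposite arm miR-210-5p had a log2 fold change of -0.35 with overlapping groups. miR-362-3p, from a cluster within Clcn5, was scarce, at 15.7, 14.5 and 24.1 CPM against 10.7, 13.9 and 12.6 CPM (log2 fold change -0.59, SE 0.259). The groups did not overlap, by a narrow margin, and the log2 fold change ran from -0.78 to -0.26 when 1 library was left out. miR-203a-3p, a miRNA of skin epithelium, had no overlap but an unadjusted p of 0.0679 (470 ± 13.4 against 406 ± 32.2 CPM, log2 fold change -0.21).

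1 α1ACT library set the value of miR-10a-5p, which is encoded in a Hox gene cluster. It stood at 8225, 9286 and 9984 CPM in the vector libraries and at 4736, 8237 and 8534 CPM in the α1ACT libraries. Replicate 1 of the α1ACT line was far below the other 2, which overlapped with the vector libraries. The log2 fold change of -0.36 (SE 0.150, edgeR quasi-likelihood, BH-adjusted p = 0.386) shrank to -0.13 without that library. The same library was lowest for miR-10b-5p (65708 CPM, against 115837 and 131155 CPM in the other α1ACT libraries and 78266 to 98891 CPM in the vector libraries) and for miR-27b-3p (102904 CPM, against 140600 and 130938 CPM). For miR-10a-5p the other deposited count table gave a mean log2 fold change of -0.52 over 6 h, 24 h and 10 d, times without that library.

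The most abundant miRNAs differed little. miR-375-3p, the leading miRNA of endocrine cells, stood at 180790 ± 8915 CPM in the vector and 169177 ± 11431 CPM in the α1ACT libraries (log2 fold change -0.10). Log2 fold changes of the others were -0.05 for miR-27b-3p, 0.19 for miR-10b-5p, 0.13 for let-7f-5p, 0.02 for miR-22-3p, 0.04 for miR-182, -0.14 for miR-16-5p, 0.08 for let-7i-5p and 0.21 for let-7c-5p. Of the 10 most abundant only miR-30a-5p had groups that did not overlap, against 6.32% above and 7.43% below over all 269 entries. The 95% intervals of the other 9 all include 0 and the widest of these, for miR-10b-5p, reaches from -0.18 to 0.55.

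The lists of related miRNAs were read as counts and medians, beside a median of 0.02 over all 269 entries. They were drawn up with earlier results of these data known, so these counts are no independent evidence. In the miR-181 family, here with miR-181c-3p of another seed, all 5 tested members had a positive value (median 0.20). In edgeR's test 2 had an unadjusted p under 0.05, against 4.09% of all entries on that side. These were miR-181a-5p and miR-181b-5p, the latter averaging under 10 CPM. Of 23 neuronal miRNAs 17 were positive (median 0.14), against 52.4% of all entries. In 2 of the 23, miR-9a-5p and miR-212-5p, the unadjusted p was under 0.05 on the positive side, again against 4.09% of all entries, and in 0 on the negative side. For miR-212-5p it was under 0.05 in 7 of the 20 alternative settings, and for miR-9a-5p in all 19 that gave a value. Other positive members were miR-129-5p (0.53), of which vector replicate 1 held 2 reads, and miR-137-3p (0.31, 97.8 ± 23.2 against 122 ± 16.8 CPM). With 1 library left out these 2 ran from 0.29 to 0.70 and from 0.12 to 0.55, the first low without vector replicate 1 and the second without vector replicate 2. On the negative side of that list were miR-219a-1-3p (-0.43) and miR-153-3p (-0.16), and in both all α1ACT libraries lay below all vector libraries. Over the 23 neuronal entries 3 had all α1ACT libraries above all vector libraries and 3 had them below. Over all entries these shares were 6.32% and 7.43%. Of the 5 p53-linked miRNAs 4 were positive (median 0.17), with miR-34a-5p (0.17), miR-194-5p (0.10) and miR-107-3p (-0.06) beside miR-34c-5p and miR-192-5p. Of the 6 growth-factor-responsive miRNAs 5 were positive (median 0.09). The arms of miR-212 and miR-132 in this list, miR-212-5p among them, are also on the neuronal list.

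The medians of these 4 lists stayed positive under RLE factors, upper-quartile factors and library totals. Without vector replicate 2 that of the p53-linked list was 0.03. On the negative side, 6 of 7 miRNAs within Clcn5 had a negative value (median -0.32), led by miR-362-3p and miR-362-5p (-0.52), while miR-501-3p (0.13) was positive. All 4 mesenchymal and endothelial miRNAs were negative (median -0.21), with miR-199a-3p (-0.33), miR-126a-5p (-0.07) and miR-126a-3p (-0.09) beside miR-143-3p. Of the 6 members of the miR-29 family, which represses matrix genes, 5 were negative (median -0.17), and 11 of 17 members of miR-17-92 and its paralogous clusters, known for promoting growth, (median -0.12). These 4 medians stayed negative under each of the 3 other scalings.

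Other lists were near the middle, and the sign of several medians hung on the scaling. The medians were -0.08 for 8 endocrine miRNAs, -0.07 for the 10 of the families of miR-130, miR-301, miR-148 and miR-152 and -0.07 for the 11 of miR-15, miR-16, miR-195 and miR-497. Under upper-quartile factors none of the 3 was negative, with 0.01 for the second and the third. Medians were 0.06 for 19 members of the let-7 family, 0.08 for 6 miRNAs of Hox clusters, 0.06 for 4 epithelial, 0.01 for 4 glial and 0.02 for both the 8 of miR-99, miR-100 and miR-125 and the 10 of the miR-23, miR-27 and miR-24 clusters. Among entries that averaged at least 10 CPM the epithelial list was down to 1, miR-203a-3p (-0.21), and the 3 such glial entries had a median of 0.21. Under RLE factors the glial median and that of miR-99, miR-100 and miR-125 were -0.01. The miR-26 family (median -0.08) and the miRNAs made without the microprocessor (median -0.04) had 3 members each. Of the single tested blood and muscle entries miR-142-5p was read in 1 library of each line, and miR-499-5p stood at 0, 9.12 and 13.9 CPM against 16.9, 9.10 and 15.7 CPM. No liver entry was in the table.

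**Figure D3:**
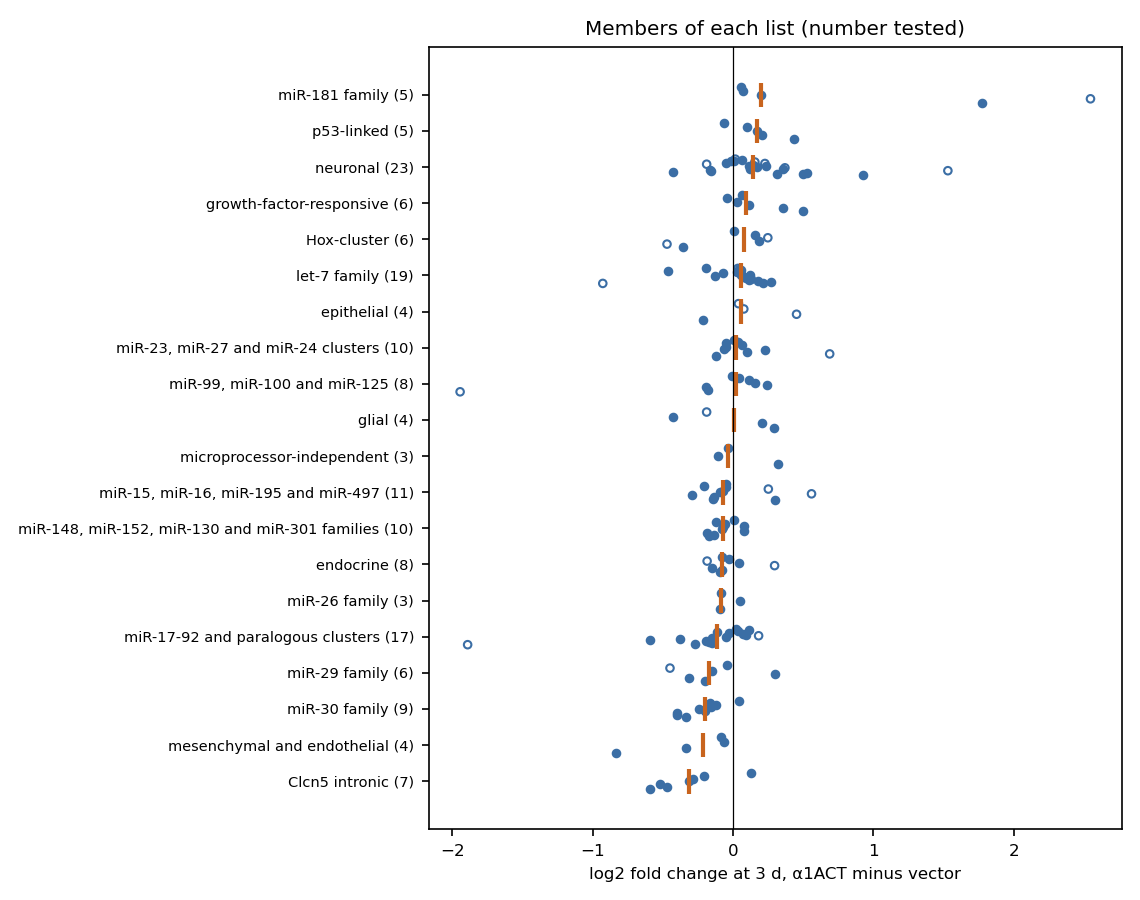
Log2 fold change at 3 d (α1ACT minus vector) of each tested member of the 20 lists with at least 3 tested members, ordered by median (orange bars); filled circles average at least 10 CPM, open circles less. The miR-181, p53-linked and neuronal lists lie at the top with medians of 0.14 to 0.20, and the miR-30, mesenchymal and endothelial and Clcn5 lists at the bottom with medians of -0.32 to -0.20, while most members of every list lie within 0.5 of 0.

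Grouping by the sequence of the seed in place of the name gave 27 seeds shared by 2 or more tested entries. The 9 let-7 guide arms with the seed GAGGUAG all had a positive value, from 0.03 for miR-98-5p to 0.27 for let-7b-5p, and none had an unadjusted p under 0.05. Their summed level was 198583, 142060 and 189780 CPM in the vector and 174706, 201732 and 203737 CPM in the α1ACT libraries, so these groups overlap and vector replicate 2 was the low library. Without that library the log2 fold change of let-7f-5p was -0.01 and that of let-7i-5p -0.01. The 5 guide arms with the seed AGCAGCA, among them miR-16-5p, all had a negative value (median -0.09), with sums of 30014 to 41246 CPM and 32430 to 34480 CPM that overlap too. All 4 members of the seed AUUGCAC, to which miR-25-3p and miR-92a-3p belong, were negative (median -0.16), and their sums of 11051 to 11935 CPM in the vector libraries lay above the 9920 to 10725 CPM of the α1ACT libraries. The seed GGCAGUG of miR-34c-5p and miR-34a-5p summed to 170, 107 and 150 CPM in the vector and 182, 147 and 182 CPM in the α1ACT libraries. Here the groups overlap, since miR-34a-5p did.

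Arms of 1 hairpin and hairpins of 1 cluster were set side by side. Both arms were tested for 84 hairpins and had 1 sign in 49. With both arms at 10 CPM or more it was 36 of 58 (r = 0.395 over these hairpins, which share libraries, a description with no test). Arms went apart for miR-378a, whose scarce 5p arm (6.31 ± 1.78 against 9.52 ± 0.531 CPM) lay above all vector libraries in all 3 α1ACT libraries while the 3p arm lay below them. In the miR-212 and miR-132 cluster, known to respond to neuronal activity and growth factors, all 4 arms were positive (median 0.24). All 4 were already counted in the neuronal and growth-factor-responsive lists. Besides miR-212-5p these were miR-132-5p (0.36), miR-132-3p (0.11) and miR-212-3p (0.07), each with overlapping groups. The value of miR-132-5p was 0.10 without vector replicate 1 and 0.98 without vector replicate 3.

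The entries let-7c-2-3p and let-7a-1-3p have 1 and the same mature sequence of 22 bases in RefSeq.
let-7a-1-3p: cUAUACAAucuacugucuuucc
let-7c-2-3p: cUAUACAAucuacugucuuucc
Each of the 6 libraries had reads in 1 of them and none in the other. The reads stood under let-7c-2-3p in vector replicates 1 and 3 and α1ACT replicates 2 and 3, and under let-7a-1-3p in the other 2 libraries. Summed, the pair was at 58.3, 50.3 and 49.6 CPM in the vector and 42.7, 50.3 and 35.9 CPM in the α1ACT libraries, with α1ACT replicate 2 level with vector replicate 2. Neither entry has a value of its own here. When the pair was summed before the fit, edgeR called 4 miRNAs, miR-181a-5p and miR-9a-5p higher and miR-143-3p and miR-30a-5p lower (edgeR quasi-likelihood, BH-adjusted p = 0.0395 to 0.0475). This setting was chosen after the data had been seen.

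The 3 d libraries share no library with the other times, but they come from the same 2 lines. Of the 24 miRNAs with an unadjusted p under 0.05 at 3 d (edgeR quasi-likelihood), 17 had 1 sign at all 4 times, against 101 of all 269 entries. Among the 20 of them that averaged at least 10 CPM it was 16. Across the 218 abundant entries the log2 fold changes at 3 d correlated with those at 6 h at r = 0.306, at 24 h at r = 0.589 and at 10 d at r = 0.530, where all fold changes share the lines, the scaling and the annotation. At 6 h, 24 h and 10 d miR-181a-5p had log2 fold changes of 1.83, 2.11 and 1.93, miR-708-3p of 1.31, 1.06 and 1.06, and miR-143-3p of -0.65, -0.90 and -0.67. For miR-9a-5p it was 0.35, 0.61 and 0.90, so 3 d and 10 d were alike and 6 h was lowest.

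**Figure D4:**
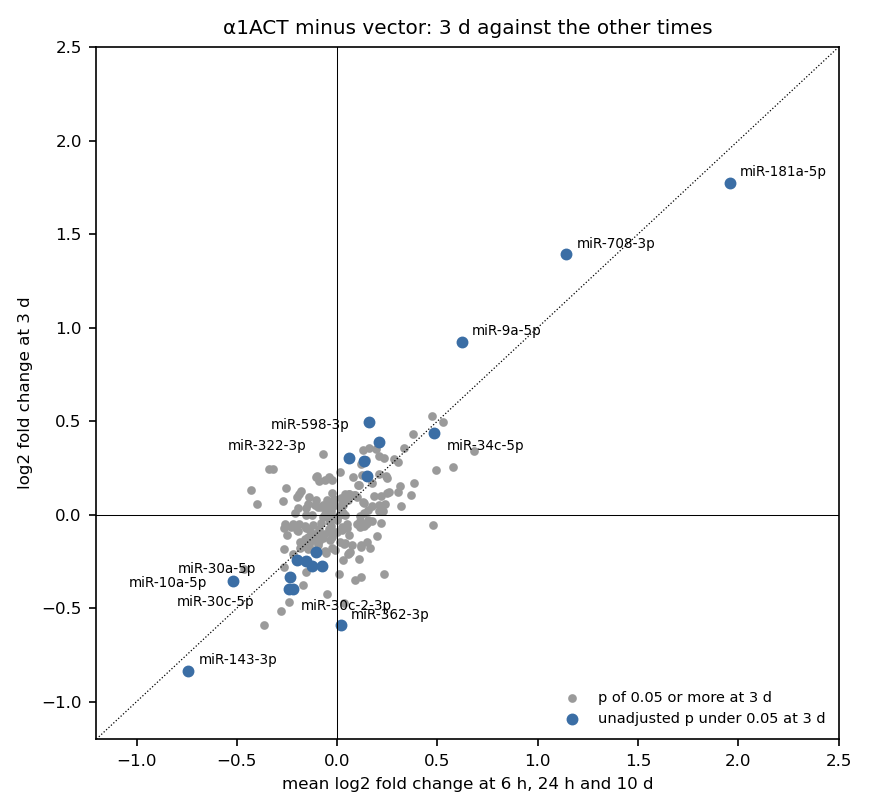
Log2 fold change at 3 d (vertical axis) against the mean of the log2 fold changes at 6 h, 24 h and 10 d (horizontal axis) for 216 of the 218 abundant entries, without let-7c-2-3p and let-7a-1-3p; the dotted line marks equal values. miR-181a-5p, miR-708-3p, miR-9a-5p and miR-143-3p lie near the line away from the cloud, and miR-362-3p lies on the vertical axis at -0.59.

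Whether the difference at 3 d departs from that at the other times was tested directly, as the 3 d difference minus the mean difference at 6 h, 24 h and 10 d. By edgeR's quasi-likelihood test 0 of 269 entries passed (0%), and 7 had an unadjusted p under 0.05 (2.60%). DESeq2 and limma-voom called 0 as well, with 8 and 7 at an unadjusted p under 0.05. Among abundant miRNAs let-7d-3p had the smallest p on the higher side, with a log2 fold change of 0.06 at 3 d and -0.41, -0.58 and -0.21 at the other times, a difference of 0.46 (unadjusted p = 0.0366). let-7f-5p followed (0.13 at 3 d, -0.16, -0.26 and -0.12 at the other times, unadjusted p = 0.0487). On the lower side were miR-500-3p (-0.32 at 3 d, 0.20, 0.30 and 0.20 at the other times, unadjusted p = 0.0202) and miR-362-3p (-0.59 at 3 d, 0.17, -0.01 and -0.10 at the other times, unadjusted p = 0.0485), both of the Clcn5 cluster. These values do not pass the adjustment over all entries.

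**Figure D5:**
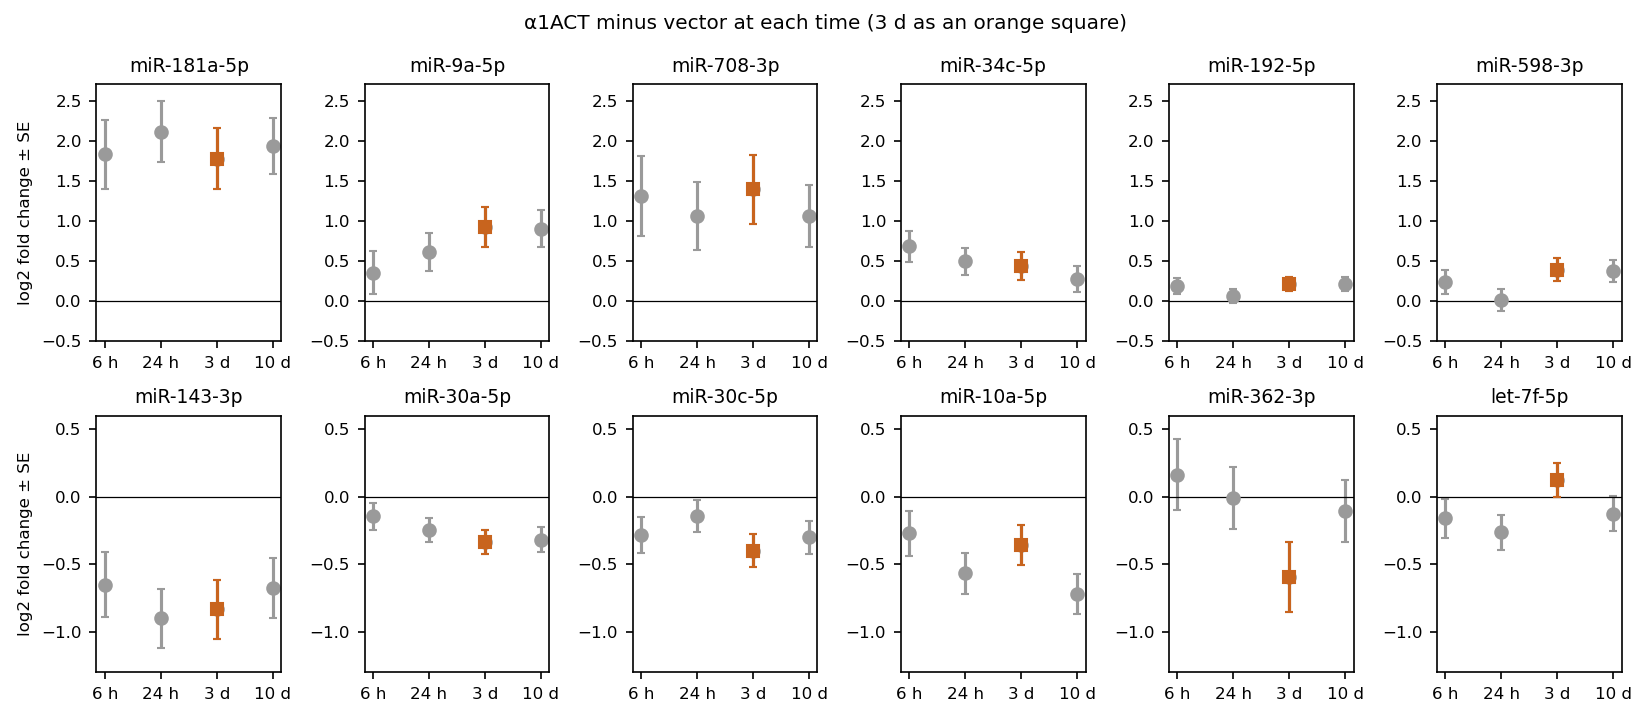
Log2 fold change of the α1ACT over the vector line with its SE at each time for 12 miRNAs; the 3 d value is the orange square, and the upper and lower rows have different scales. In miR-181a-5p, miR-9a-5p, miR-708-3p, miR-34c-5p and miR-143-3p the 3 d value has the sign of all other times, while miR-362-3p and let-7f-5p were chosen for the difference between 3 d and the other times, which did not pass the adjusted test.

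The second deposited count table gave like values for most entries tested in both. Tested in both tables were 267 entries, of which 216 averaged at least 10 CPM, and 199 of these had 1 sign (r = 0.973 of the log2 fold changes over these entries, from the same libraries). It gives no value for miR-9a-5p, whose entry there has 1 read over the 6 libraries, against 421 in the main table. It held 305 tested entries, of which edgeR called 0 at 3 d and 23 had an unadjusted p under 0.05. In it miR-30b-5p, which has no entry in the main table, had a log2 fold change of -0.17, and miR-30b-3p of -0.39, both with overlapping groups and an unadjusted p above 0.05. Of 11 abundant entries outside the tested ones of the main table only miR-335, named after its value was seen, had an unadjusted p under 0.05 (log2 fold change -0.31, edgeR adjusted p = 0.591).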

How the data were processed

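Small RNA was sequenced from miRNA-enriched fractions with an Illumina small RNA protocol, per the labels' protocols. The authors deposited raw read counts of mature miRNAs in 2 tables, without normalization, whose names point to sRNAbench (413 entries, the main table) and Chimira (627 entries). The tool edgeR is named without a version, per the submitters' processing notes. Not given in the sources used here were the genome build, the aligner and the miRBase release. Each table has 12 further columns of no sample used here. 1 entry without a name held 0% of the counts and was left out.

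Counts were fitted with edgeR 4.0.16 in R 4.3.3: filterByExpr, TMM factors, 1 mean per group over all 23 libraries and robust quasi-likelihood tests, with Benjamini-Hochberg adjusted p under 0.05 as a call. CPM are TMM-scaled and limits cover the spread between libraries only, since PCR reads carry no molecular identifiers. Replicates were checked for duplicates and none was found (chi-square per degree of freedom 26.7 to 215). Alternatives were the Chimira table, 3 scalings, 2 filters, DESeq2 1.42.0, limma-voom (limma 3.58.1), a replicate block, the 3 d libraries alone, an exchange of a pair of vector columns and leaving out each 3 d library. Chosen after seeing the data were summing let-7c-2-3p with let-7a-1-3p and leaving out that pair of columns (vector 6 h replicate 2 and 10 d replicate 2), whose counts match each other's name in the second table.

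The comparison, the 25 lists and the naming rule were chosen with earlier results of these data known. The rule names the calls, the 12 smallest p in each direction among entries averaging 10 CPM or more, the 10 most abundant miRNAs, up to 2 members per list and direction (all of small lists), the 5 smallest p per direction against the other times, and arms and neighbours of these. Mature sequences and hairpin neighbours within 10 kb came from RefSeq tables of GRCr8. The steps were tested on simulated data.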

Additional observations from a re-analysis of the deposited data

How the results depend on the processing

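The 1 higher call became 0 in the other count table, under upper-quartile factors and in the 3 d libraries alone with a replicate block, 2 with let-7c-2-3p and let-7a-1-3p summed and 3 in DESeq2. The 0 lower calls became 3 in DESeq2, 1 in the 3 d libraries alone, 2 with that pair summed and 1 without vector 6 h replicate 2 and 10 d replicate 2. Leaving out each 3 d library gave 0 to 1 higher and 0 to 4 lower calls, the 4 without vector replicate 2. The cause was not tested. Of the 20 lists with at least 3 tested members 10 had a positive median, and 6 to 10 with 1 library left out, the 6 without α1ACT replicate 3. The difference from the other times stayed at 0 calls in each setting run. Upper-quartile factors moved the share of positive values from 52.4% to 66.5%.

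Same-numbered deviations of vector and α1ACT libraries correlated at 0.009, 0.132 and 0.063, and other-numbered ones at -0.213 to 0.125. So few values cannot settle whether replicate numbers pair the libraries. With the replicate number as a block over all libraries, 1 higher and 0 lower calls remained in number, and 29 entries in place of 24 had an unadjusted p under 0.05.

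Values near 0 changed sign. Under upper-quartile factors miR-27b-3p was at 0.032, miR-107-3p at 0.020 and miR-126a-5p at 0.021. miR-22-3p was at -0.0080 with RLE factors and in DESeq2 and at -0.017 without a filter, where miR-98-5p was at -0.0046. miR-30e-3p was at -0.0069 in DESeq2 and at -0.0055 in limma-voom. With 1 library left out the log2 fold change ran from -0.0045 to 0.11 for miR-181c-3p, from -0.13 to 0.047 for miR-107-3p, from -0.087 to 0.15 for miR-30e-3p, from -0.022 to 0.12 for miR-212-3p, from -0.013 to 0.27 for let-7f-5p, from -0.038 to 0.090 for miR-22-3p, from -0.0078 to 0.15 for let-7i-5p, from -0.047 to 0.31 for miR-34a-5p, from -0.29 to 0.0083 for miR-30c-1-3p, from -0.056 to 0.095 for miR-98-5p, from -0.031 to 0.13 for miR-182, from -0.17 to 0.17 for miR-126a-5p, from -0.20 to 0.12 for miR-126a-3p, from -0.15 to 0.46 for miR-501-3p, from -0.046 to 0.21 for let-7d-3p, from -0.15 to 0.067 for miR-27b-3p, from -0.026 to 0.18 for miR-194-5p, from -0.13 to 0.22 for miR-132-3p and from -0.026 to 0.43 for miR-10b-5p. The shallow vector replicate 1 limits entries under 10 CPM.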
